A study of Homo sapiens with 6 samples.

Results

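The histone genes of HCT116 cells were taken from the RNA-seq data as the protein-coding rows whose symbols begin like a core or linker histone (H1, H2A, H2B, H3 or H4) and whose mean count over the 6 libraries was at least 5. Of 59 rows with such a symbol, 36 passed this minimum, out of 28491 rows in all, of which 16530 were protein-coding. They were split by name and position into 27 replication-dependent genes of the clusters on chromosomes 1 and 6 and 9 variant genes outside them. Values are given for 35 of these genes, 8 of them variants. H4C14, with a mean count of 5, was the last gene inside the minimum, and H4C9, with 4.83, the first outside it.

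HCT116 is an established human colorectal carcinoma line, and the study asked how overexpression of the RNA-binding protein RBM47 alters gene expression in it. Cells received by lipofection either a control plasmid (NC) or a plasmid with the RBM47 transcript (RBM47-OE) and were harvested after 48 h, with 3 libraries of poly(A) RNA in each group. The sample labels name a pcDNA3.1-3xFlag-RBM47 plasmid, DMEM and a NEBNext directional kit, whereas the methods name pIRES-hrGFP-1a, a KC stranded kit and McCoy's 5A. All libraries came from 1 cell line, and nothing states that replicates were separate cultures, so p-values measure the spread between these libraries. Values are given in the order of replicates 1, 2 and 3 throughout. As FPKM, which are fragments scaled to gene length and library size, RBM47 stood at 1.91, 2.33 and 1.94 in NC against 131.3, 130.4 and 127.0 in RBM47-OE. The 6 libraries held 26792409 to 35477983 counts on genes. Of 7 epithelial markers, EPCAM, CDH1, KRT8, KRT18, KRT19 and CDX2 had a mean NC FPKM of 4.70 or more and VIL1 had one of 0.063. CD3E was listed at 0 in every NC library, PECAM1 had a mean NC FPKM of 0.027 and COL1A1 had one of 1.53.

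Histones wrap DNA into nucleosomes, which hold pairs of H2A, H2B, H3 and H4, and H1 binds the linker DNA between them. Replication-dependent histone genes are transcribed in S phase, when new DNA needs new nucleosomes, and their mRNAs normally end in a stem-loop bound by SLBP instead of a poly(A) tail. Variant genes are transcribed through the cell cycle, mostly carry introns or ordinary poly(A) signals, and supply histones with particular places in chromatin. Libraries made from poly(A) RNA therefore recover the variant mRNAs, while for the replication-dependent genes they recover whatever carried a poly(A) tail or came through the selection without one. How much that was in these libraries was not measured.

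The 3′ stem-loop marked every replication-dependent gene, but not these alone. It was searched as the 16 bases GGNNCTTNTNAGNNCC on the sense strand within 100 bases after the stop codon. For each gene 1 GENCODE 44 transcript was used, the one marked canonical. All 27 replication-dependent genes held a match, 26 to 57 bases after the stop codon. Of the 8 variant genes, 1 did, H2AX, and of all 19924 protein-coding genes, histone genes included, 72 did (0.361%). The members carried 7 distinct forms, of which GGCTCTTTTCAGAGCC was found in 17 genes. The sites of the most abundant replication-dependent genes, of the 2 that passed the test described below, of H4C3, and of H2AX are printed here on the sense strand, with the stem-loop in capitals.
H1-2: cccaaaaGGCTCTTTTCAGAGCCaccactg
H2BC12: ccccaaaGGCTCTTTTAAGAGCCacttaaa
H3C10: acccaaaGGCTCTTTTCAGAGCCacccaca
H2AC11: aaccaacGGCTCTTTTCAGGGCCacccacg
H4C3: acccaaaGGCCCTTTTCAGGGCCgctcaca
H2AX: ccacaaaGGCCCTTTTAAGGGCCaccaccg
In GRCh38 these stretches lie at chr6:26055737-26055766 (H1-2, minus strand), chr6:27146359-27146388 (H2BC12, minus), chr6:27810509-27810538 (H3C10, plus), chr6:27133508-27133537 (H2AC11, plus), chr6:26104310-26104339 (H4C3, plus) and chr11:119094891-119094920 (H2AX, minus), just downstream of the stop codons.

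The variant genes carried most of the histone signal. Of all counts on the 35 genes, 96.55% fell on the 8 variants and 3.45% on the 27 replication-dependent genes, in counts that are not scaled to gene length. In summed FPKM, which is, the replication-dependent genes made up 11.6% in NC and 12.0% in RBM47-OE. In CPM, which are counts scaled to library size with TMM factors, the replication-dependent genes summed to 73.5, 77.8 and 76.7 in NC and to 76.7, 66.5 and 67.1 in RBM47-OE. RBM47-OE replicate 1 lay within the NC range, so the groups overlapped. By family, the H2A genes, variants included, summed to 957 ± 40.2 CPM in NC and 853 ± 25.9 in RBM47-OE (SD, n = 3), with every RBM47-OE library below every NC library. Most of the H2A sum came from H2AZ1 and H2AX, at 582 and 187 CPM in NC, and neither was called with the GC offset described below. The H2B genes, at 26.5 ± 0.43 and 23.3 ± 2.32 CPM, were separated in the same way, although each H2B gene by itself overlapped. Of all single genes tested below, 23.4% showed this downward separation, and the family sums were not tested. The H3 genes summed to 934 ± 25.1 and 888 ± 26.1 CPM and the H4 genes to 0.77 ± 0.20 and 0.44 ± 0.14, and both overlapped. So did the H1 genes, at 274, 304 and 298 CPM in NC and 296, 252 and 233 in RBM47-OE.

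**Figure D1:**
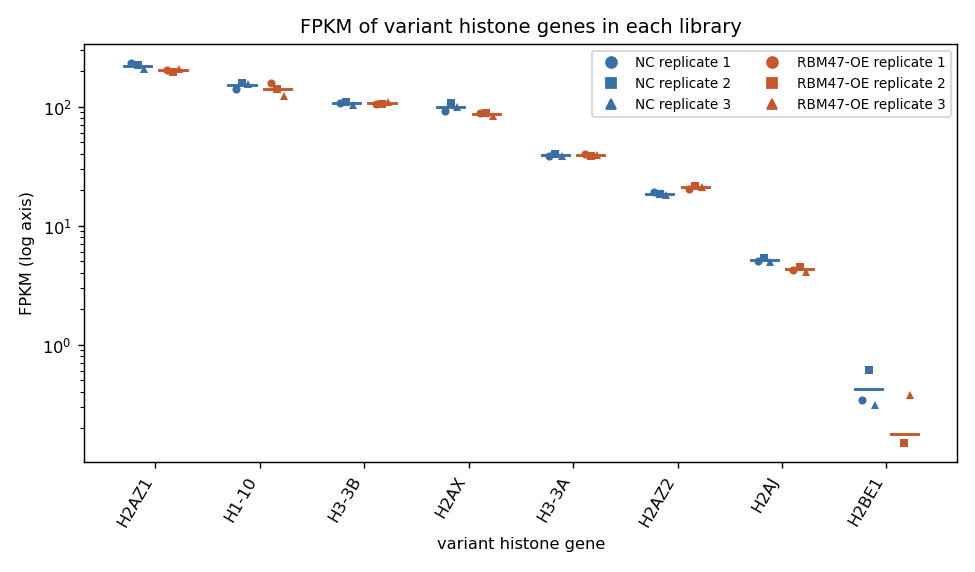
FPKM (log axis) of 8 variant histone genes in each of the 3 NC and 3 RBM47-OE libraries, with a bar at the mean of each group. H2AZ1, H2AX and H2AJ were lower in all RBM47-OE libraries, H2AZ2 was higher, and the value of 0 for H2BE1 in RBM47-OE replicate 1 cannot be drawn on this axis.

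Differences between the groups were tested on the counts of all genes by the quasi-likelihood method of edgeR, and called at a Benjamini-Hochberg adjusted p-value under 0.05. Of 16260 genes tested, 19.1% were called higher and 16.9% lower in RBM47-OE. The RBM47-OE libraries also followed base composition more closely than NC did. Spearman's rho across 16233 genes, between the GC content of the exons and a library's log2 difference from the NC mean, was -0.416, -0.588 and -0.677 in RBM47-OE. In NC, with each library set against the remaining NC libraries, it was -0.162, 0.128 and 0.038. No p is attached to these values, since genes are not independent replicates. In an alternative fit this trend was subtracted per library (the GC offset), and it called 5.98% of genes higher and 8.57% lower. The offset takes out every difference that follows GC content, whatever its origin.

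Of the 8 variant genes, 7 had enough counts to be tested. H2AX, H2AJ and H2AZ1 were called lower, and 0 of the 7 were called higher by edgeR, 0 also at an unadjusted p-value under 0.05 and 0 by DESeq2. Over all genes tested, edgeR called 16.9% lower and 19.1% higher, and 7 genes are too few to set a share against these. The largest of the 3 differences was 1.25-fold, for H2AJ. In CPM the RBM47-OE libraries were all lower than the NC libraries for these 3 genes and all higher for 1, H2AZ2. Over all genes tested the same separation was found in 23.4% and 23.2%. The median log2 fold change of the 7 was -0.18, against 0.00 over all genes. With the GC offset 2 were called lower, H2AJ and H3-3A, and 0 higher, beside 8.57% and 5.98% of all genes.

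H1-10 (ENSG00000184897.6, chromosome 3, 129314771 to 129316286) encodes H1.10, a linker histone variant. Its FPKM was 140.2, 157.6 and 153.3 in NC and 156.1, 140.9 and 121.4 in RBM47-OE, so the groups overlapped. The log2 fold change of -0.18 (standard error 0.083) did not pass the test (edgeR adjusted p = 0.095). Without RBM47-OE replicate 1 it was -0.28 with an adjusted p of 0.0014 from edgeR. H1-10 is the most GC-rich of the 8 variants (68.6% of exonic bases), and with the GC offset its log2 fold change was 0.04. On the opposite strand the antisense RNA H1-10-AS1 overlaps 895 bases of it, and whether strand was used in counting is not given in the sources used here.

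H2AZ1 and H2AZ2 encode the isoforms of H2A.Z, a variant placed at promoters by dedicated remodelling complexes. The FPKM of H2AZ1 (ENSG00000164032.12, chromosome 4, 99948086 to 99950355) was 232.2, 224.6 and 205.9 in NC and 202.8, 194.9 and 204.8 in RBM47-OE. All RBM47-OE values were lower, the highest of them by a narrow margin. H2AZ1 fell by 0.21 in log2 units (edgeR adjusted p = 0.028, standard error 0.073). Of the variant calls this one was lost most often, under 10 of 17 alternatives. It was lost with the GC offset (-0.17, edgeR adjusted p = 0.079) and without NC replicate 1, NC replicate 2 or RBM47-OE replicate 2, where edgeR's adjusted p was 0.19, 0.13 and 0.086.

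The FPKM of H2AZ2 (ENSG00000105968.19, chromosome 7, 44826791 to 44848087) was 19.1, 18.5 and 18.0 in NC and 20.2, 21.5 and 21.2 in RBM47-OE. Here every RBM47-OE library lay above NC, the opposite of H2AZ1, but the log2 fold change of 0.11 (standard error 0.068) did not pass the test (edgeR adjusted p = 0.23). The ratio of H2AZ2 to H2AZ1 CPM on the log2 scale was -1.95 ± 0.050 in NC and -1.64 ± 0.076 in RBM47-OE (SD, n = 3), higher in all 3 RBM47-OE libraries. An exact two-sided permutation test of this difference of 0.32 gave p = 0.10, the smallest value 3 libraries against 3 allow (0.20 after adjustment over the 2 pairs compared, of which H3-3A and H3-3B are the other). The exons of H2AZ2 hold 41.6% GC and those of H2AZ1 49.2%, and with the GC offset the log2 fold changes of both were negative, at -0.12 and -0.17.

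H2AX (ENSG00000188486.3, chromosome 11, 119093874 to 119095465) encodes the H2A variant that is phosphorylated at DNA double-strand breaks. Its mRNA is known in a stem-loop form and in a poly(A) form, and its annotated 3′ end lies 1024 bases beyond the stem-loop printed above. Its FPKM was 92.4, 106.5 and 99.9 in NC and 88.6, 88.3 and 82.7 in RBM47-OE. The RBM47-OE libraries were lower throughout. H2AX fell by 0.27 in log2 units (edgeR adjusted p = 0.0044, standard error 0.072). Its exons hold 66.8% GC, and with the GC offset the log2 fold change was -0.05 (edgeR adjusted p = 0.60). Without NC replicate 2 edgeR's adjusted p was 0.069.

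H2AJ (ENSG00000246705.4, chromosome 12, 14774405 to 14778002) encodes H2A.J, a variant known to accumulate in senescent cells. Its FPKM was 5.05, 5.33 and 4.93 in NC against 4.26, 4.52 and 4.07 in RBM47-OE, with a clear gap between the groups. H2AJ fell by 0.32 in log2 units (edgeR adjusted p = 0.010, standard error 0.096). In contrast to H2AX, its exons hold 44.1% GC, and the GC offset gave -0.47 (edgeR adjusted p = 9.3e-04). Without NC replicate 2 edgeR's adjusted p was 0.072.

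H3-3A and H3-3B encode the same protein, H3.3, which replaces H3 at transcribed genes and regulatory elements. The FPKM of H3-3B (ENSG00000132475.10, chromosome 17, 75776434 to 75785893) was 107.7, 108.7 and 103.0 in NC and 104.4, 105.4 and 109.1 in RBM47-OE. That of H3-3A (ENSG00000163041.13, chromosome 1, 226061851 to 226072019) was 38.6, 39.7 and 38.4 in NC and 40.1, 38.2 and 38.8 in RBM47-OE. The groups overlapped for both genes. The log2 fold changes were -0.07 for each, with standard errors of 0.071 and 0.069 and adjusted p-values of 0.45 and 0.49 from edgeR. The log2 ratio of H3-3A to H3-3B was -2.13 ± 0.030 in NC and -2.13 ± 0.058 in RBM47-OE (SD, n = 3), with p = 0.90 in an exact two-sided permutation test. Under the GC offset H3-3A (41.7% GC) was called lower, at -0.29 (edgeR adjusted p = 0.0044), and H3-3B (49.4% GC) stood at -0.03.

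H2BE1, on chromosome 7, had 6, 14 and 6 counts in NC and 0, 3 and 7 in RBM47-OE, too few for the filter. It reached the mean count of 5 only through NC, so the lower counts in RBM47-OE are a description with no test. H2BE1 shares its position and strand with the longer read-through gene ABCF2-H2BK1.

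Of the 27 replication-dependent genes, 17 passed the filter on low counts. None was called higher and 2 were called lower, H2AC11 and H3C10, a share no larger than the 16.9% of all genes called lower. With edgeR at an unadjusted p-value under 0.05 the counts were also 0 higher and 2 lower, and DESeq2 gave 0 higher and 2 lower. Of the 17 log2 fold changes 12 were negative and 5 positive, with a median of -0.16, and the groups overlapped for 15 of the 17. The median standard error was 0.29, against 0.072 for the 7 variants and 0.10 for all genes tested. The 5 genes with the most counts had standard errors of 0.10 to 0.15, all above the 0.096 of H2AJ, the largest among the tested variants. The other 12 had 0.26 to 0.44, at which changes of the size called in the variants were below what the counts resolve. In the 5 as well, the smaller of those changes could be missed. With the GC offset no gene was called in either direction (unadjusted p under 0.05 for 3 lower genes), and the median was -0.12.

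**Figure D2:**
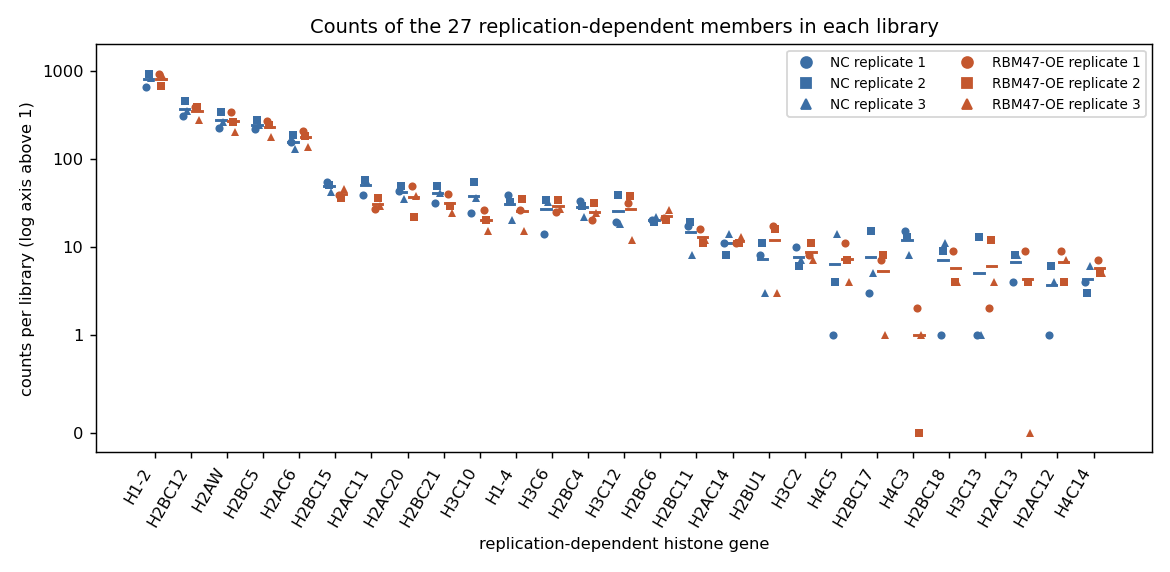
Counts of the 27 replication-dependent histone genes in each library (log axis above 1, linear from 0 to 1), ordered by their mean, with a bar at the mean of each group. H1-2 had 645 to 923 counts, the genes after the first 5 had at most 57, and the groups do not overlap for H2AC11 and H4C3.

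H2AC11 (ENSG00000196787.3, chromosome 6, 27133043 to 27133535) encodes a canonical H2A. With 39, 57 and 54 counts in NC against 27, 36 and 29 in RBM47-OE, its groups did not overlap. It fell by 0.77 in log2 units (edgeR adjusted p = 0.027, standard error 0.27). With the GC offset it was -0.56 (edgeR adjusted p = 0.17). The call was also lost without NC replicate 2, NC replicate 3, RBM47-OE replicate 1 or RBM47-OE replicate 3, where edgeR's adjusted p was 0.074, 0.11, 0.073 and 0.059. Its FPKM (0.64 ± 0.076 in NC) and its counts together imply a gene length of about 2553 bases, against 493 in GENCODE 44. All lengths implied in this way are approximate, since those of H1-2, H2AZ1 and H3-3B each came to 1.13 times the GENCODE 44 length. The gene model behind the counts was then longer, and the reads need not come from the histone transcript alone. The GC offset used the GC content of the 493 bases, which need not apply to the longer model.

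H3C10 (ENSG00000278828.1, chromosome 6, 27810051 to 27811300) encodes canonical H3. It had 24, 54 and 36 counts in NC and 26, 20 and 15 in RBM47-OE. NC replicate 1, a smaller library, fell among the RBM47-OE counts, but in CPM all RBM47-OE libraries were lower (0.79, 0.62 and 0.52 CPM against 0.91, 1.56 and 1.25). H3C10 fell by 0.95 in log2 units (edgeR adjusted p = 0.025, standard error 0.33), and the GC offset gave -0.92 (edgeR adjusted p = 0.060). Without NC replicate 2, NC replicate 3, RBM47-OE replicate 2 or RBM47-OE replicate 3 edgeR's adjusted p was 0.18, 0.061, 0.069 and 0.095.

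The 5 most abundant genes that were not called made up most of the replication-dependent signal. H1-2, a linker histone of the main cluster, had an FPKM of 28.8, 31.6 and 33.4 in NC against 33.8, 26.6 and 35.8 in RBM47-OE, with a log2 fold change of -0.03 (standard error 0.10). It stood above 92.7% of protein-coding genes in NC, although its annotation ends 4 bases past the stem-loop. H2BC12, a canonical H2B, had an FPKM of 19.9, 22.5 and 21.3 in NC against 20.7, 22.4 and 17.2 in RBM47-OE, with a log2 fold change of -0.15 (standard error 0.12). The groups overlapped in both.

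H2AW, the H2A gene of the small cluster at the far end of chromosome 1, had an FPKM of 8.02, 9.44 and 8.82 in NC against 10.19, 8.39 and 7.03 in RBM47-OE, with a log2 fold change of -0.11 (standard error 0.14). H2BC5, an H2B gene known to yield poly(A) transcripts, had 8.20, 7.78 and 8.23 in NC against 8.32, 8.02 and 6.36 in RBM47-OE, with a log2 fold change of -0.16 (standard error 0.13). H2AC6, an H2A gene of the same kind, had 3.01, 2.76 and 2.30 in NC against 3.33, 3.17 and 2.54 in RBM47-OE, with a log2 fold change of 0.10 (standard error 0.15). These also overlapped between the groups. The counts and FPKM of H2AW imply a gene length of 1013 bases, against 1850 in GENCODE 44, so its level rests on another gene model. For the 5 genes the adjusted p-values from edgeR lay between 0.33 and 0.84.

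The other 10 tested genes, H1-4, H2AC14, H2AC20, H2BC4, H2BC6, H2BC11, H2BC15, H2BC21, H3C6 and H3C12, had mean counts of 11.3 to 44.3 and an FPKM of 0.237 to 2.30. Their log2 fold changes ran from -0.45 to 0.06, 6 negative and 4 positive, with standard errors of 0.26 to 0.44 and adjusted p-values of 0.23 or more from edgeR. The counts and FPKM of H2BC4 imply a gene length of 948 bases, against 2881 in GENCODE 44, and those of H2BC15, which has the lowest FPKM, imply 6206 against 4265, so their levels rest on other gene models. H2AC14 shares 56.0% of its 150-base stretches with H2AC13, so reads of that pair could be split between them or dropped as not unique.

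**Figure D3:**
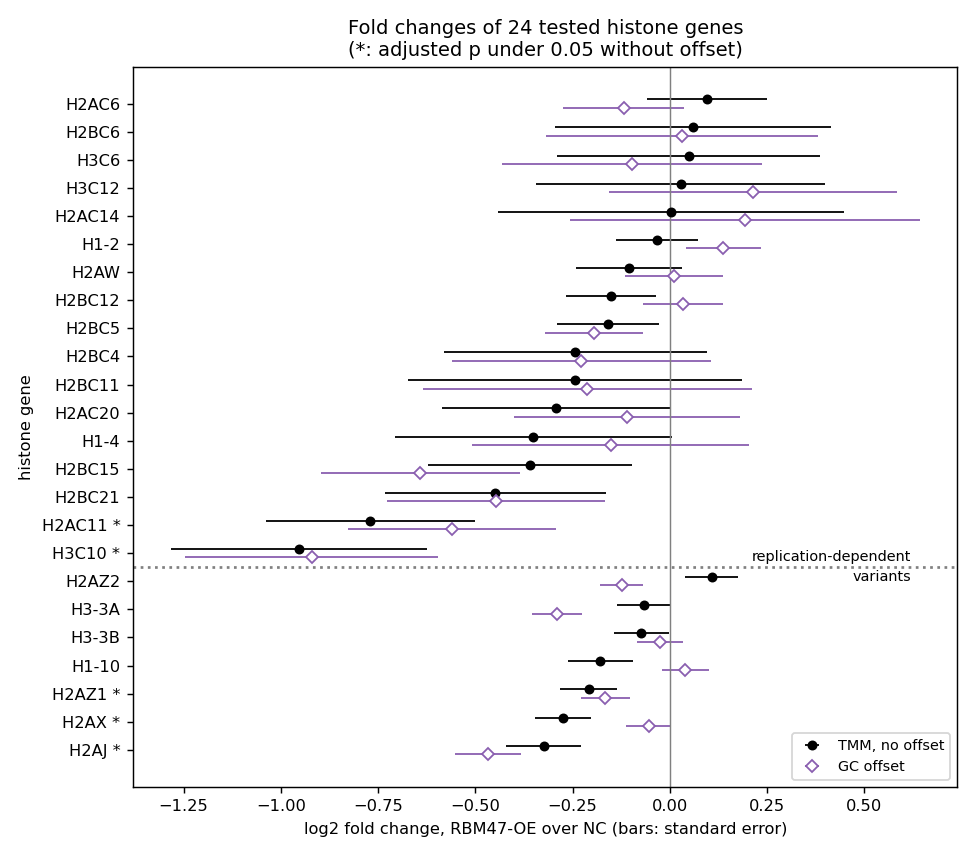
Log2 fold changes of RBM47-OE over NC with standard errors for 24 tested histone genes, without an offset (black) and with the GC offset (open). The variants have short bars and lie between -0.32 and 0.11 without the offset, while the replication-dependent genes spread from -0.95 to 0.10 with bars that mostly cross 0.

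The remaining 10 replication-dependent genes fell under the filter, with 11 to 36 counts each summed over the NC libraries. H4C3 (ENSG00000197061.5, chromosome 6, 26103933 to 26104337), a canonical H4 gene picked out after its values were seen, stood apart. It had 15, 13 and 8 counts in NC and 2, 0 and 1 in RBM47-OE, so the groups did not overlap. Relative to library size the summed counts, 36 and 3, gave a ratio of RBM47-OE to NC of 0.079. H4C3 reached the mean count of 5 only through NC, which favours a lower value in RBM47-OE, so the difference is a description with no test. H4C3 lies inside the span of the H2B gene H2BC4 on the opposite strand, over all 405 of its bases, and H2BC4 itself had 33, 29 and 22 counts in NC and 20, 31 and 24 in RBM47-OE. For the other 9 genes the ratios ran from 0.62 for H2AC13 to 1.73 for H2AC12, also with too few counts for a test.

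The annotated 3′ ends were set beside the counts, with no test. Of the 17 tested replication-dependent genes, 10 had a GENCODE 44 transcript that ends more than 100 genomic bases past the stem-loop. This held for 3 of the 10 genes below the filter and for 2 of the 19 searched among the 21 replication-dependent rows under the mean count of 5. H2AC6, H2BC5 and H2AW have such transcripts, with ends 14432, 12747 and 22592 genomic bases downstream, introns included. H1-2 and H2BC12, the genes with the most counts, do not. Which 3′ end the reads came from cannot be told from gene counts.

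**Figure D4:**
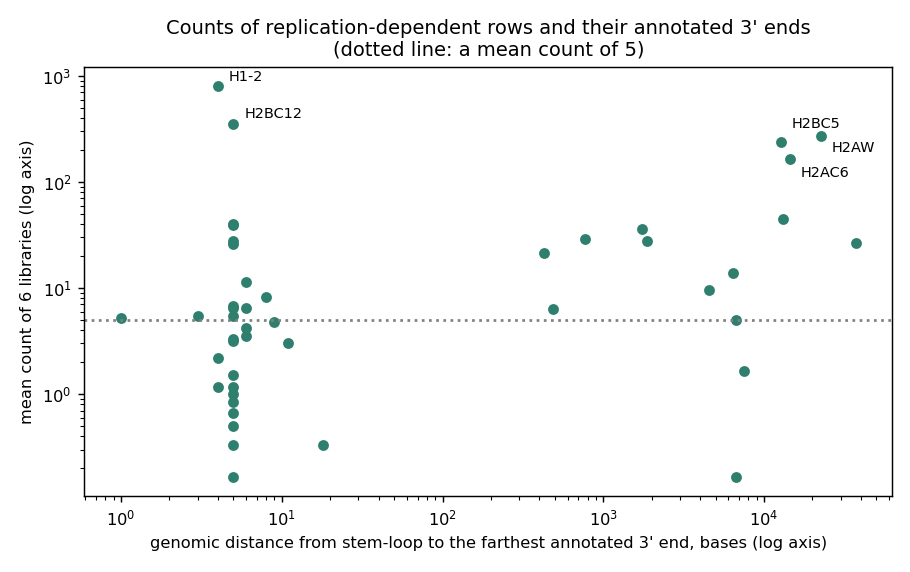
Mean count over the 6 libraries against the genomic distance from the stem-loop to the farthest annotated 3′ end in GENCODE 44 (both axes log), for the replication-dependent rows in which a stem-loop was found. Each transcript's end was counted from its own stop codon, so for H2BC15 and H2BC18 the distance drawn falls short of the annotated end of the gene. Of the 19 rows under the dotted line at a mean count of 5, 17 end within 50 bases of the stem-loop, and of the 5 labelled genes H2AC6, H2BC5 and H2AW have distant ends while H1-2 and H2BC12 do not.

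Many H2A and H2B genes are transcribed in opposite directions from a shared promoter, which often holds the octamer ATTTGCAT bound by OCT1. In the promoters listed by RefSeq for GRCh38 (250 bases before to 50 after the first listed start), 24 of the 27 replication-dependent genes and the 8 variants were matched by symbol. The octamer, read on either strand, was found in 7 of 10 H2B and 4 of 6 H2A promoters, in none of the 8 H1, H3 and H4 promoters, in 1 of the 8 variants (H3-3B), and in 1.80% of all 27305 promoters. The box TATAAA was found in 17 of the 24, in 4 of the 8 variants and in 12.0% of all promoters. CCAAT was found in 22 of the 24, in 7 of the 8 variants and in 35.7% of all promoters. Neither box was therefore particular to the replication-dependent genes, and their 2 H4 promoters held neither. H2AC11, which was called lower, shares its octamer with H2BC11 across the gap between them, at chr6:27132824-27132853. The stretch is printed on the strand of each gene, beside that of the abundant H2BC12, with the octamer or its reverse complement in capitals.
H2AC11: tagaatcgcttATGCAAATaaggtgaagag
H2BC11: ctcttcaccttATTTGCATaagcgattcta
H2BC12: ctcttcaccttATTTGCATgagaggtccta
H2BC11 had 17, 19 and 8 counts in NC and 16, 11 and 12 in RBM47-OE, so its groups overlapped while those of H2AC11 did not. A match of letters is a description of the promoter and not a site of binding.

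The proteins that process histone mRNA were described from a list of 26 genes, all of which were tested. The list, called the processing genes here, also holds regulators of histone transcription such as NPAT. Of these 12 were called higher and 6 lower, with a median log2 fold change of 0.17. With the GC offset 1 and 4 were, and the median was -0.014. All processing, chaperone, S-phase and neighbour counts are read against the background of 19.1% and 16.9% of all genes given above, or 5.98% and 8.57% with the offset, and no list was tested as a whole. SLBP, which binds the stem-loop, had an FPKM of 53.2, 52.5 and 50.01 in NC and 48.3, 47.5 and 60.6 in RBM47-OE. RBM47-OE replicate 3 was the highest of the 6 and the other two the lowest, and the log2 fold change was -0.06 (edgeR adjusted p = 0.58). NPAT, the coactivator that switches on histone transcription when phosphorylated by cyclin E with CDK2, had 1.72, 1.54 and 1.6 in NC and 1.71, 2.36 and 2.63 in RBM47-OE, where replicate 1 lay within the NC range. NPAT was called higher by 0.39 on the log2 scale (edgeR adjusted p = 0.013), and stood at 0.06 with the GC offset. Without NC replicate 2, RBM47-OE replicate 2 or RBM47-OE replicate 3 edgeR's adjusted p was 0.068, 0.062 and 0.12.

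ERI1, an exonuclease that trims the histone 3′ end, rose from an FPKM of 8.94 ± 0.44 to 12.4 ± 0.79 (SD, n = 3), a log2 fold change of 0.40 (edgeR adjusted p = 2.7e-04) and 0.15 with the GC offset (edgeR adjusted p = 0.091). SNRPB, an Sm protein of the spliceosome and of the U7 particle that guides histone 3′ cleavage, fell from 305.7 ± 4.05 to 246.9 ± 18.1. Its log2 fold change was -0.38 (edgeR adjusted p = 4.7e-04), and -0.46 with the GC offset. SRRT, which joins the cap complex to 3′ processing, fell from 30.3 ± 0.49 to 23.8 ± 0.41, a log2 fold change of -0.42 (edgeR adjusted p = 7.9e-05) and -0.24 with the GC offset.

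Among 26 histone chaperones and their partners, 7 were called higher and 10 lower, with a median log2 fold change of 0.02, and 1 and 6 with the GC offset, where the median was -0.08. IPO4, an importin that carries H3 and H4 into the nucleus, fell from 17.9 ± 0.18 to 13.9 ± 0.15 FPKM (SD, n = 3), a log2 fold change of -0.44 (edgeR adjusted p = 7.1e-05) and -0.24 with the GC offset. ATRX, which with DAXX deposits H3.3 at repeats, rose from 1.35 ± 0.10 to 2.09 ± 0.30, a log2 fold change of 0.56 (edgeR adjusted p = 8.8e-05). HAT1, which acetylates newly made H4, rose from 6.69 ± 0.17 to 9.85 ± 1.81, a log2 fold change of 0.48 (edgeR adjusted p = 3.4e-04). Neither passed with the GC offset, at 0.17 and 0.21.

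Of 20 S-phase genes, 2 were called higher and 12 lower, with a median log2 fold change of -0.23, and 1 and 8 with the GC offset, where the median was -0.12. CCNE1, cyclin E1, fell from 11.5 ± 0.36 to 8.13 ± 0.46 FPKM (SD, n = 3), a log2 fold change of -0.57 (edgeR adjusted p = 5.5e-05) and -0.45 with the GC offset. MCM2, a subunit of the replicative helicase that also binds H3 and H4, fell from 54.8 ± 1.08 to 43.2 ± 1.51, a log2 fold change of -0.41 (edgeR adjusted p = 1.3e-04) and -0.25 with the GC offset. RRM1, the large subunit of ribonucleotide reductase, rose from 20.7 ± 0.46 to 31.1 ± 4.71, a log2 fold change of 0.51 (edgeR adjusted p = 8.4e-05) and 0.33 with the GC offset. In bulk RNA, fewer cells in S phase and less of an mRNA per cell cannot be told apart.

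**Figure D5:**
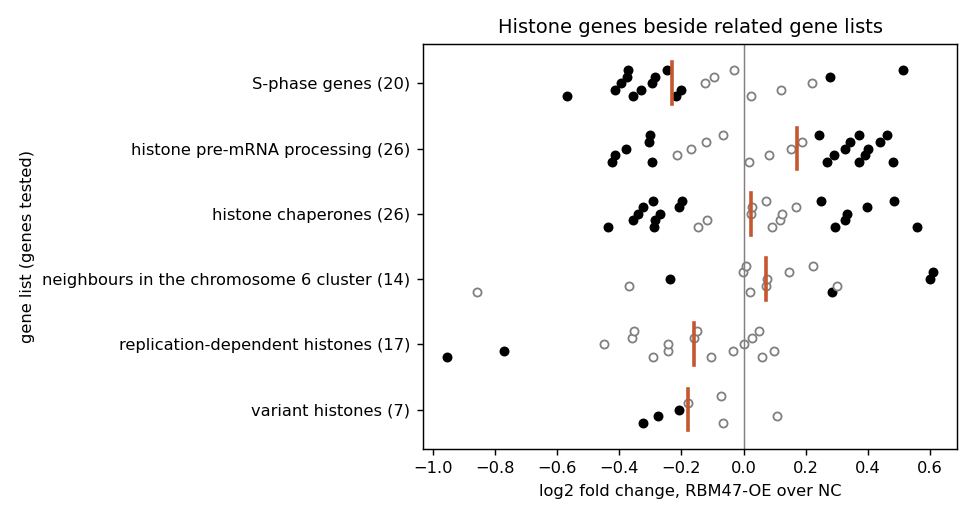
Log2 fold changes of RBM47-OE over NC without an offset for the tested histone genes and for related gene lists, 1 point per gene, filled where edgeR's adjusted p was under 0.05, with a bar at the median. The S-phase genes lie mostly below 0 (median -0.23), the processing genes mostly above it (median 0.17, but -0.014 with the GC offset), and the 2 histone classes have medians of -0.16 and -0.18.

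Of 3 histone variants whose symbols fall outside the rule, edgeR called 0 in either direction, 0 also at an unadjusted p under 0.05, as did DESeq2. CENPA, the H3 variant of centromeres, had an FPKM of 9.98, 10.12 and 9.58 in NC against 9.79, 10.51 and 8.47 in RBM47-OE, with a log2 fold change of -0.12 (edgeR adjusted p = 0.37). MACROH2A1 and MACROH2A2, the macroH2A genes, had log2 fold changes of -0.09 and -0.10 (edgeR adjusted p = 0.35 and 0.34). With an offset fitted to exonic length in place of GC content (the length offset) both were called lower, at -0.24 each (edgeR adjusted p = 0.017 and 0.021). Their groups overlapped in each case.

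The 14 tested protein-coding genes without a histone symbol between the replication-dependent genes of the chromosome 6 cluster served as neighbours. They were chosen by symbol and position alone, and RP1-34B20.21, known by a clone name only, is among them. Of these 3 were called higher and 1 lower, shares of the 14 near or below the 19.1% and 16.9% of all genes, and 0 and 1 were with the GC offset, against 5.98% and 8.57%. ZNF322, a zinc-finger gene, rose from 1.36 ± 0.16 to 2.19 ± 0.30 FPKM (SD, n = 3), a log2 fold change of 0.61 (edgeR adjusted p = 6.6e-04). ZNF184, another, rose from 1.79 ± 0.29 to 2.87 ± 0.87, a log2 fold change of 0.60 (edgeR adjusted p = 0.0046, and 0.093 without RBM47-OE replicate 2). ABT1, a nuclear activator of basal transcription, fell from 21.5 ± 0.88 to 19.2 ± 0.55, a log2 fold change of -0.24 (edgeR adjusted p = 0.014). For ABT1 the adjusted p was 0.079, 0.080 and 0.066 without NC replicate 1, NC replicate 3 and RBM47-OE replicate 2. With the GC offset ZNF322 and ZNF184 stood at 0.32 and 0.39, and only ABT1 of these 3 passed the test.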

How the data were processed

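The 6 libraries of HCT116 poly(A) RNA were filtered and trimmed by the authors with FASTX-Toolkit, aligned to GRCh38 with HISAT2 and counted from uniquely mapped reads. The deposited counts are not normalized, and the deposited FPKM values were divided by the authors by gene length and library size. The counting tool, the annotation release and the use of strand are not given in the sources used here. FPKM depends on the authors' gene length, so levels of genes with other GENCODE 44 lengths are uncertain. Their GC and length offsets are uncertain too, since these used the GENCODE 44 exons.

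Counts of all genes were tested by the quasi-likelihood method of edgeR (version 4.0.16, R 4.3.3) after TMM scaling, without covariates and with Benjamini-Hochberg adjustment, on genes kept by filterByExpr (count 10, total 15). Standard errors were derived from the F statistic. GC offsets were loess curves (span 0.3). Coordinates, GC content, stop codons and overlaps came from GENCODE 44 and GRCh38. A variant gene that meets the rule is not reported here, and it stays in the fits over all genes but in no count, sum or median of the members. Named genes were all other tested variants, all called replication-dependent genes, the next 5 by FPKM, and the 3 with the smallest adjusted p of each list plus SLBP, NPAT and CENPA. The epithelial and other-cell markers were a check of the line. Members and lists were chosen with earlier results of these data known. DESeq2 1.42.0, limma 3.58.1, other scalings, filters and offsets, and each library left out were the alternatives, and edgeR was tested on simulated data.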

Additional observations from a re-analysis of the deposited data

How the results depend on the processing

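The count of 0 replication-dependent genes called higher and the sign of both medians held under all alternatives. With the GC offset, alone or with the replicate block, 0 replication-dependent genes were called lower, and with the length offset 1 was. Leaving out each library gave 0 to 2 lower genes, 0 variants higher and 0 to 4 variants lower, the 0 without NC replicate 2, and a variant median of -0.22 to -0.094, the last without RBM47-OE replicate 3. The replication-dependent median was -0.10 with library totals, -0.12 with the GC offset, -0.063 with the length offset, -0.044 and -0.086 with limma on log2(FPKM + 1) and log2(FPKM + 0.1), and -0.21 to -0.12 with each library left out. Variants called higher numbered 1, H2AZ2, with library totals and with limma at either pseudocount. Variants called lower numbered 1 with limma on log2(FPKM + 1) and 0 at the study's thresholds (p under 0.01, fold over 1.5). Library totals moved the median of all genes to 0.06.

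The replicate numbers do not pair the libraries: deviations of same-numbered libraries from their group means correlated at -0.060, -0.015 and -0.016 over 16260 genes. With the replicate block 0 variants were called higher and 2 lower, since H2AZ1 had an adjusted p of 0.076 from edgeR.

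Over 36 named genes and 17 alternatives each, 522 of 612 log2 fold changes kept their sign and call, 52 lost the call, 14 gained it and 24 changed sign, all in genes not called. H1-10 was 0.0403 with the GC offset and 0.0399 with that and the replicate block, H2AZ2 was -0.124 and -0.125 in these, H2BC12 was 0.034 and 0.033, and H3-3A was 0.0046 and 0.0047 with limma. H1-2 was 0.026 with library totals, 0.14 with the GC offset, 0.13 with that and the block, 0.070 with the length offset, 0.027 and 0.028 with limma, and -0.12 to 0.10 with each library left out (0.015 without NC replicate 3, 0.10 without RBM47-OE replicate 2). H2AW was 0.010 with the GC offset, 6.5e-07 with that and the block, and -0.27 to 0.013 with each library left out, the last without RBM47-OE replicate 3. H2AC6 was -0.12 and -0.13 with the GC offset without and with the block, and -0.0042, without NC replicate 3, to 0.20 with each library left out. SLBP was 0.021 with the length offset and -0.19 to 0.013 with each library left out, the last without RBM47-OE replicate 2. Of 20 called genes 7 kept the call throughout, none of them a histone. The causes were not tested. Counts under about 60 a library limit what can be seen in most replication-dependent genes.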

Other observations

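Outside the protein-coding rows, 4 rows begin with a histone symbol: the antisense RNA H1-10-AS1, the divergent transcript H2AZ1-DT, and the H2B pseudogenes H2BC19P and H2BC20P. H1-10-AS1, which overlaps H1-10, had an FPKM of 5.35, 5.13 and 5.29 in NC and 4.88, 3.90 and 3.41 in RBM47-OE, a log2 fold change of -0.44 (edgeR adjusted p = 0.0041) and -0.25 with the GC offset (edgeR adjusted p = 0.080). H2AZ1-DT had 1.15, 1.02 and 0.90 in NC and 0.97, 0.86 and 0.90 in RBM47-OE, and its log2 fold change of -0.24 did not pass the test (edgeR adjusted p = 0.22), but with the GC offset it was -0.43 and did (edgeR adjusted p = 0.04986).

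H2BC19P had 39, 62 and 70 counts in NC and 81, 84 and 82 in RBM47-OE, and H2BC20P had 73, 103 and 85 counts in NC and 117, 110 and 102 in RBM47-OE. In CPM every RBM47-OE library lay above every NC library for both pseudogenes, as for 23.2% of all genes tested. Their log2 fold changes of 0.46 and 0.27 did not pass the test (edgeR adjusted p = 0.10 and 0.25), and with the GC offset H2BC19P passed at 0.68 (edgeR adjusted p = 0.039) and H2BC20P did not at 0.47 (edgeR adjusted p = 0.064).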
